A study of Rattus norvegicus with 60 samples.

Results

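The 10 genes described here are widely used markers of astrocytes, measured in bulk RNA from the CA1 area of the rat hippocampus. They were chosen by name, as the rows of the deposited expression table labelled Gfap, Aqp4, Slc1a2, Slc1a3, Aldh1l1, Gja1, Acsbg1, Glul, S100b and Aldoc, and all 10 were found among 22865 genes. The rule uses no measured value, though the genes were proposed with earlier results of these data known. All 10 reached 1 FPKM (fragments per kilobase of transcript, scaled to the mapped fragments of a library) in each of 34 libraries and were among 13153 genes that passed the filter of at least 1 FPKM in at least 5 libraries.

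Astrocytes are the glial cells that wrap synapses and contact blood vessels with their end-feet. They clear glutamate from the synaptic cleft through high-affinity transporters, convert it to glutamine for return to neurons, take up potassium and water, and supply metabolites through gap junction networks. In CA1, astrocytic glutamate uptake shapes how long synaptic glutamate acts on receptors during plasticity. Several of the 10 genes are not exclusive to astrocytes: S100b and Glul are also transcribed in oligodendrocytes, and Slc1a2 in some neurons.

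The rats were Sprague-Dawley animals aged 90 to 120 d. RNA was sequenced from 9 naive libraries, 6 labelled place and 8 labelled threat at 1 h, and 5 place and 6 threat at 24 h, and the study examined CA1 after contextual threat recognition training. MBD sequencing, which captures methylated DNA on a methyl-binding domain protein, covered 3 naive, 4 place and 3 threat libraries per time and 3 uncaptured inputs. The labels carry no time for naive RNA, so the same 9 libraries served both times, and they say no more of what place and threat rats experienced. No group carries a transgene or a drug in the labels. Whether replicates were separate animals is not stated, so p-values measure only how far these samples spread, and that spread may be technical.

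The relative depth of the RNA libraries, read from their lowest values, ran from 0.838 to 1.22 of the median, and 12472 to 12947 genes reached 1 FPKM in a library. Markers of every cell class checked in CA1 tissue were present, led by Mbp for oligodendrocytes (mean 1304 FPKM), Cck for interneurons (197 FPKM) and Nov for CA1 pyramidal cells (119 FPKM). The choroid plexus list, led by Ttr, summed to 2.86 to 270 FPKM outside threat 1 h but reached 6465 FPKM in 1 threat 1 h library. Naive libraries 1 to 4 and 5 to 9 stand as 2 separate runs of columns in the deposited table, and they differed in several genes below. They are not a labelled batch, so values against each run are given where they change a call.

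The starts of these genes differ in how many CG dinucleotides, the main site of DNA methylation in mammals, they hold. A relation of these counts to the captured DNA described further on was not tested. RefSeq promoters were matched for 10 of 10 genes (build GRCr8). Shown are the 250 bases upstream of the start of the genes with the highest captured signal at their starts at 1 h, Gfap and Slc1a2, and of 2 glutamate-handling genes with almost none at either time, Slc1a3 and Glul. Slc1a2 has 2 RefSeq starts, and Slc1a3 and Glul have more than the one shown. Whether the captured signal at the annotated start of Slc1a2 lies at either of its 2 RefSeq starts was not checked. The sequences run 5′ to 3′ on the gene's strand, with CG dinucleotides in capitals. Gfap lies at chr10:88361662-88361911 (minus strand), the upstream Slc1a2 start at chr3:109459859-109460108 and the downstream one at chr3:109507697-109507946 (both plus), Slc1a3 at chr2:59557809-59558058 (minus) and Glul at chr13:68575816-68576065 (plus).

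Gfap: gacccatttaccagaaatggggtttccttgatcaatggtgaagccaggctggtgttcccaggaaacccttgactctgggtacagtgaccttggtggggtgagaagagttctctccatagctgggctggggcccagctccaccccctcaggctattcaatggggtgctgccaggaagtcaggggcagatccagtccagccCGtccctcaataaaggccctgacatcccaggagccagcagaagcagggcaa
Slc1a2 upstream start: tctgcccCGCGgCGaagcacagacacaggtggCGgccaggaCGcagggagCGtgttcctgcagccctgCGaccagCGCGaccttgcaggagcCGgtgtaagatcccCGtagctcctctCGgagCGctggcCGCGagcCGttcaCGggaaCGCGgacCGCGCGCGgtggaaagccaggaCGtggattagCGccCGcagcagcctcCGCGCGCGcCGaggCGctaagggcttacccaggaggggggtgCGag
Slc1a2 downstream start: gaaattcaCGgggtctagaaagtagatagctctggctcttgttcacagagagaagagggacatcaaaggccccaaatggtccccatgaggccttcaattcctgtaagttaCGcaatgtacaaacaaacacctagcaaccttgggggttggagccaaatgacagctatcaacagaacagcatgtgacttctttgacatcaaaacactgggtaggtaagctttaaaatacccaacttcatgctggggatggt
Slc1a3: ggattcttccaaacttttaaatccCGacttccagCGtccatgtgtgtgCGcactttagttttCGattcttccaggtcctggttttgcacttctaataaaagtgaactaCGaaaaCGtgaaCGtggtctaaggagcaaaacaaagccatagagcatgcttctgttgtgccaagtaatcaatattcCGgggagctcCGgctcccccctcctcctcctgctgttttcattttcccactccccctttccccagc
Glul: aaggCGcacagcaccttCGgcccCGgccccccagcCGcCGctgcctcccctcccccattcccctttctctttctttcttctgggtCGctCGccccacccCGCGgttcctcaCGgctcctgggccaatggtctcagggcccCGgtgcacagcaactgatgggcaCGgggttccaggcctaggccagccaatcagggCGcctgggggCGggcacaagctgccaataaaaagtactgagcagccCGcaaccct

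A median promoter of the 33469 in RefSeq held 5 CG in this window, and 92.2% held at least 1. Gfap, with 1, had more than 7.83% of promoters. The upstream Slc1a2 promoter, with 33, had more than 96.4%, and the downstream one, with 2, more than 18.2%. Slc1a3 held 9 and Glul 15 in the windows shown. The other members held from 3 (1 of 2 Aqp4 starts) to 8 (Gja1). A CG count describes these letters only and says nothing of whether they are methylated.

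Most of the astrocyte genes were among the most abundant mRNAs of the tissue. Per length, S100b, a calcium-binding protein, ranked 19th of all genes at a mean of 643 FPKM, Glul 32nd at 483 FPKM, Aldoc 55th at 366 FPKM and Gfap 80th at 295 FPKM. Slc1a2 followed at 289 FPKM, Slc1a3 at 197 FPKM, Gja1 at 192 FPKM, Aqp4 at 110 FPKM and Acsbg1 at 56.9 FPKM. Aldh1l1, a folate enzyme often used to mark all astrocytes, was far lower at 5.74 FPKM and ranked 7824th. Summed, the 10 genes ran from 2275 to 3177 FPKM over the 34 libraries, both extremes being place 1 h libraries, and the ranges of all 5 groups overlapped.

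The coefficient of variation over all 34 libraries was lowest for Slc1a3 (8.28%) and highest for Slc1a2 (18.8%), against a median of 11.5% over the genes tested. Gfap (14.1%) and Aldh1l1 (13.6%) also lay above that median, and the remaining members lay below it. For 9 of the members the highest group mean was 1.05 to 1.20 times the lowest. For Slc1a2 it was 1.43 times. When the 5 groups were ordered by mean, the mean ± 1 SD ranges of neighbouring groups overlapped for every member.

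**Figure D1:**
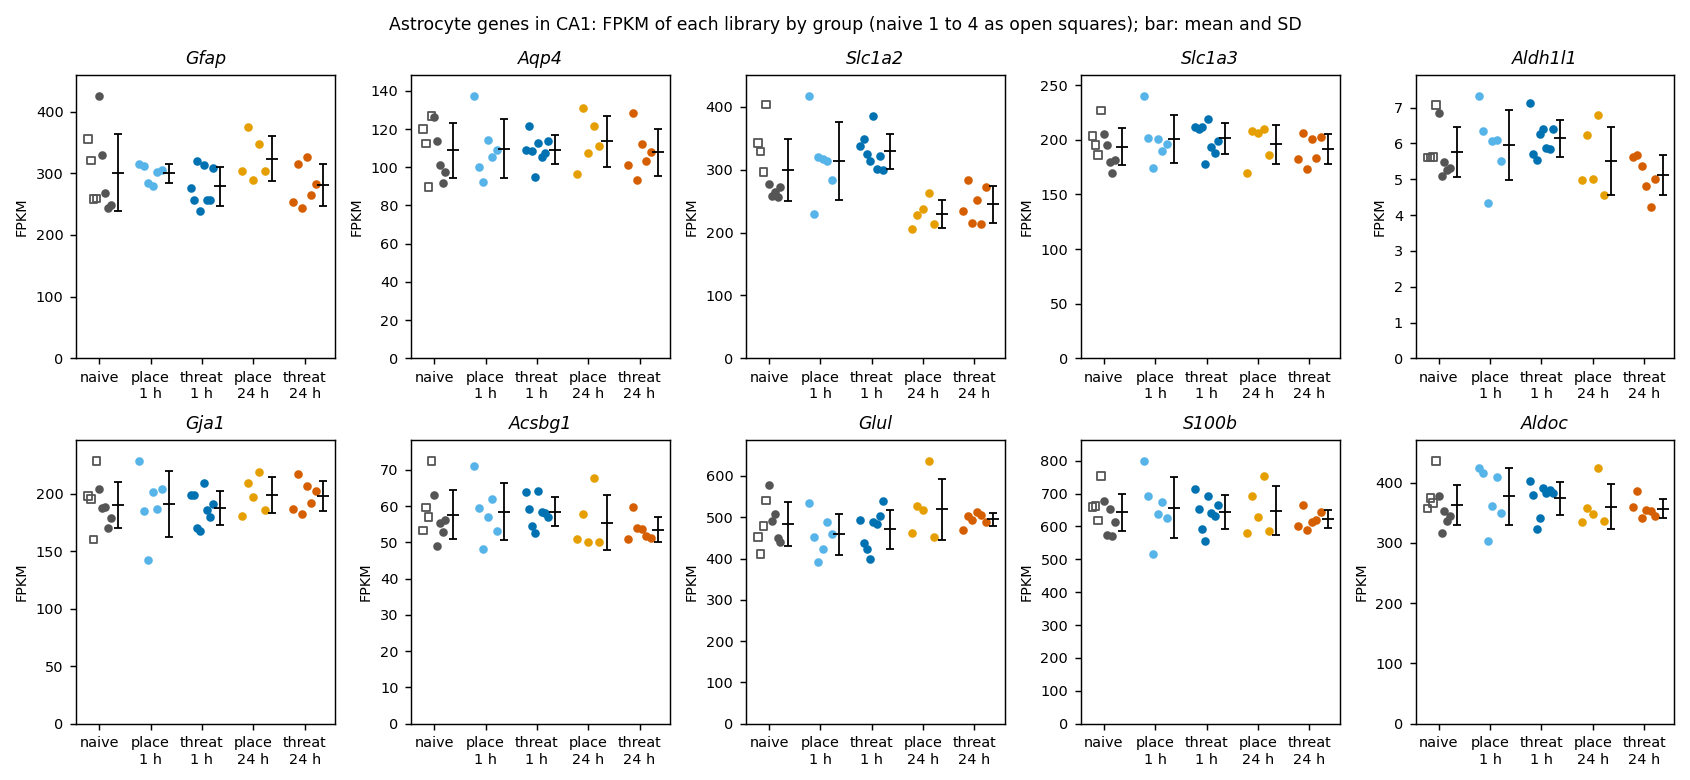
FPKM of each of the 10 astrocyte genes (vertical axes, from 0) in the 34 RNA libraries, by group on the horizontal axis; points are libraries, open squares are naive libraries 1 to 4, and bars give the mean and SD. Slc1a2 sits lower in the 24 h groups (206 to 284 FPKM) than in threat 1 h (299 to 385 FPKM), while the groups of the other genes overlap.

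Slc1a2 encodes GLT1, the transporter that carries most glutamate uptake in the forebrain. It was the member that differed most between 1 h and 24 h libraries. The gene lies on chromosome 3, 99282853 to 99309441 on the plus strand in rn5. In threat 1 h libraries it ran from 299 to 385 FPKM with a median of 323, and in place 1 h libraries from 229 to 418 with a median of 315. In place 24 h libraries it stood at 206, 228, 237, 263 and 214 FPKM, and in threat 24 h libraries at 234, 284, 215, 252, 213 and 273 FPKM. All 6 threat 24 h libraries were below all 8 threat 1 h libraries, whereas in the place groups the lowest 1 h library fell inside the 24 h range. The share of all tested genes that separated in this way is not given here, and 29.3% were called between these threat groups.

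Slc1a2 fell between 1 h and 24 h in both trained groups by about the same amount. In threat libraries it went from 329 ± 28.4 FPKM (SD, n = 8) to 245 ± 29.4 (SD, n = 6), a change of -0.43 ± 0.10 in log2(FPKM + 1) (SE; limma adjusted p = 0.00201). In place libraries it went from 314 ± 61.6 FPKM (SD, n = 6) to 230 ± 22.4 (SD, n = 5), a change of -0.43 ± 0.11 (SE; limma adjusted p = 0.0119). The difference between the changes, the interaction of training and time, was 0.00 with a 95% interval from -0.31 to 0.31 (limma adjusted p = 1.00). Threat and place libraries were not told apart at 24 h either, with Slc1a2 0.09 higher in threat and a 95% interval from -0.14 to 0.32 (limma adjusted p = 1.00).

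Against naive tissue the call on Slc1a2 depended on the naive libraries. Naive values ran from 257 to 403 FPKM with a median of 277 and a mean of 300.0 ± 49.5 (SD, n = 9). Place 24 h libraries were lower by -0.37 ± 0.10 log2 (SE; limma adjusted p = 0.0337) and threat 24 h libraries by -0.28 ± 0.10, which missed the threshold (limma adjusted p = 0.064). The place 24 h call was lost without naive replicate 1, 2, 3 or 4, or place 24 h replicate 1, 2, 3 or 5. Naive libraries 1 to 4 held 343 ± 44.8 FPKM (SD, n = 4; 297 to 403) and naive libraries 5 to 9 held 266 ± 8.74 (SD, n = 5; 257 to 277), so the runs did not overlap. Against naive 1 to 4 alone, threat 24 h was lower by -0.48 log2 (limma adjusted p = 0.00191). Against naive 5 to 9 alone, place 24 h was lower by -0.21 (limma adjusted p = 0.451) and threat 1 h was higher by 0.30 (limma adjusted p = 0.0207). Against naive 1 to 4 alone, 29 of all tested genes were called in threat and 5 in place at 1 h. At 24 h it was 3897 and 3120. Against naive 5 to 9 alone it was 2610 and 1665 at 1 h, and 60 and 11 at 24 h. The labels do not say which trained libraries share a run with which naive ones. A part of time and a part of run in the fall of Slc1a2 from 1 h to 24 h therefore cannot be told apart. What part the naive runs play was not tested.

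In bulk tissue, fewer astrocytes and less RNA per astrocyte cannot be told apart, so the other members give the measured context. Slc1a3 encodes GLAST, the second astrocytic glutamate transporter (chromosome 2, 79348445 to 79422645, minus strand, rn5). It ran from 178 to 219 FPKM with a median of 204 in threat 1 h libraries and from 173 to 206 with a median of 192 in threat 24 h libraries. In place libraries it ran from 174 to 240 FPKM at 1 h, and stood at 170, 208, 206, 210 and 186 at 24 h. These ranges overlapped throughout. Its change from 1 h to 24 h was -0.07 in threat (95% interval -0.20 to 0.06) and -0.03 in place (-0.18 to 0.12), neither called.

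The ratio of the 2 transporter transcripts within a library therefore differed between 1 h and 24 h libraries. Slc1a2 was 1.51 to 1.76 times Slc1a3 in threat 1 h libraries and 1.16 to 1.38 times in threat 24 h libraries. In place libraries the ratio ran from 1.14 to 1.83 at 1 h and from 1.10 to 1.26 at 24 h. Naive libraries 1 to 4 had ratios of 1.59 to 1.78 and naive libraries 5 to 9 of 1.32 to 1.51. The threat ranges do not overlap, and place 1 h overlaps place 24 h through its replicate 2, at 229 FPKM of Slc1a2. The ratio was computed after the fall of Slc1a2 was known and carries no test.

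**Figure D2:**
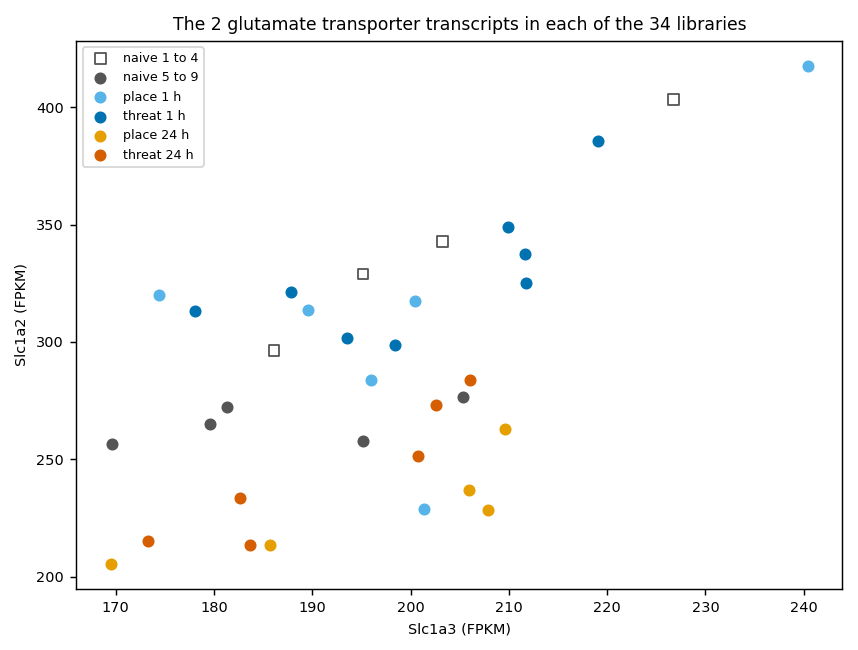
Slc1a2 (vertical axis) against Slc1a3 (horizontal axis), both in FPKM, in each of the 34 RNA libraries, coloured by group, with naive libraries 1 to 4 as open squares. The 24 h libraries lie below the 1 h libraries in Slc1a2 (206 to 284 FPKM) at 170 to 210 FPKM of Slc1a3, apart from 1 place 1 h library at 229 FPKM. Naive libraries 5 to 9 (257 to 277 FPKM of Slc1a2) lie within the 24 h range, and naive libraries 1 to 4 (297 to 403 FPKM) lie above it.

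Glul encodes glutamine synthetase, which turns the glutamate taken up into glutamine. It ran from 398 to 540 FPKM in threat 1 h libraries (median 486) and from 469 to 512 in threat 24 h libraries (median 498). In place libraries it ran from 391 to 535 FPKM at 1 h and was 462, 527, 518, 637 and 452 at 24 h. The groups overlapped. Glul was 0.17 log2 higher at 24 h than at 1 h in place (95% interval 0.00 to 0.35; limma adjusted p = 0.184) and 0.08 in threat (-0.08 to 0.24), and neither passed the test.

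Aldh1l1, the 10-formyltetrahydrofolate dehydrogenase of one-carbon metabolism, was the only other member called. It ran from 5.54 to 7.14 FPKM with a median of 6.06 in threat 1 h libraries and from 4.24 to 5.69 with a median of 5.19 in threat 24 h libraries. The ranges met between 5.54 and 5.69 FPKM. Aldh1l1 fell from 6.15 ± 0.51 (SD, n = 8) to 5.12 ± 0.55 (SD, n = 6), a change of -0.23 ± 0.08 log2 (SE; limma adjusted p = 0.0388). The call was lost with quantile normalization (-0.17, limma adjusted p = 0.110), without the filter on low values (limma adjusted p = 0.0672) and without the choroid-rich threat 1 h replicates 4 and 7 (-0.23, limma adjusted p = 0.0645). It was also lost without any 1 of threat 1 h replicates 1, 4, 5 and 8 or threat 24 h replicates 4, 5 and 6. In place libraries the change was -0.09 (95% interval -0.28 to 0.10), not called, while with array weights it was -0.20 and called (limma adjusted p = 0.0389).

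Gfap encodes the intermediate filament protein that rises in reactive astrocytes. It ran from 243 to 426 FPKM in naive libraries (median 267), from 279 to 315 in place 1 h (median 304) and from 239 to 320 in threat 1 h (median 267). At 24 h it stood at 303, 376, 289, 348 and 303 in place libraries, and ran from 244 to 327 in threat ones (median 273). Every pair of groups overlapped. The largest difference was between threat and place at 24 h, -0.21 ± 0.11 log2 (SE; 95% interval -0.43 to 0.02), and its limma adjusted p was 1.00. From 1 h to 24 h the change was 0.01 in threat and 0.11 in place.

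The 2 membrane channel genes differed little in group mean. Gja1 encodes connexin-43, the main astrocytic gap junction protein, and ran from 142 to 228 FPKM over all libraries. Aqp4 encodes the water channel of the end-feet and ran from 89.8 to 138 FPKM. Group means differed by at most 1.06 times for Gja1 and 1.05 times for Aqp4, and no comparison of either passed the test.

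Of the 2 metabolic enzymes besides Aldh1l1 and Glul, Aldoc, the brain isoform of the glycolytic enzyme aldolase, ran from 303 to 436 FPKM. Acsbg1, an acyl-CoA synthetase of long-chain fatty acids, ran from 48.2 to 72.5 FPKM and changed by -0.12 from 1 h to 24 h in threat (95% interval -0.28 to 0.03). S100b ran from 516 to 800 FPKM, with group means between 622 and 658. None of these 3 was called in any comparison.

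Read against all genes, the share of members called was near the background. From 1 h to 24 h in threat libraries 2 of 10 members were called, both lower, where 29.3% of all tested genes were called and 16.8% were called lower. In place libraries it was 1 of 10, lower, where 13.3% were called and 6.64% lower. Against naive tissue 1 of 10 was called in place 24 h (lower), where 5.05% of genes were called and 3.56% lower, and 0 of 10 in threat 24 h, where 10.1% were called. At 1 h 0 of 10 were called against naive tissue in threat (0.928% of all genes) or place (0.129%). Threat against place called 0 of 10 members and 0% of genes at 1 h and at 24 h, and so did the interaction. At an unadjusted p under 0.05 limma gave 560, 381 and 360 genes of all tested in these 3 comparisons and none of the members.

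The median change of the 10 members was -0.06 log2 from 1 h to 24 h in threat and -0.02 in place, against -0.01 and 0.01 over all genes tested. Apart from Slc1a2 and Aldh1l1, the other 8 members over 8 comparisons had differences between -0.21 and 0.17 log2, and their 95% intervals all lay between -0.43 and 0.35. Comparisons that share the naive libraries, or the 1 h or 24 h libraries, are not independent of each other.

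**Figure D3:**
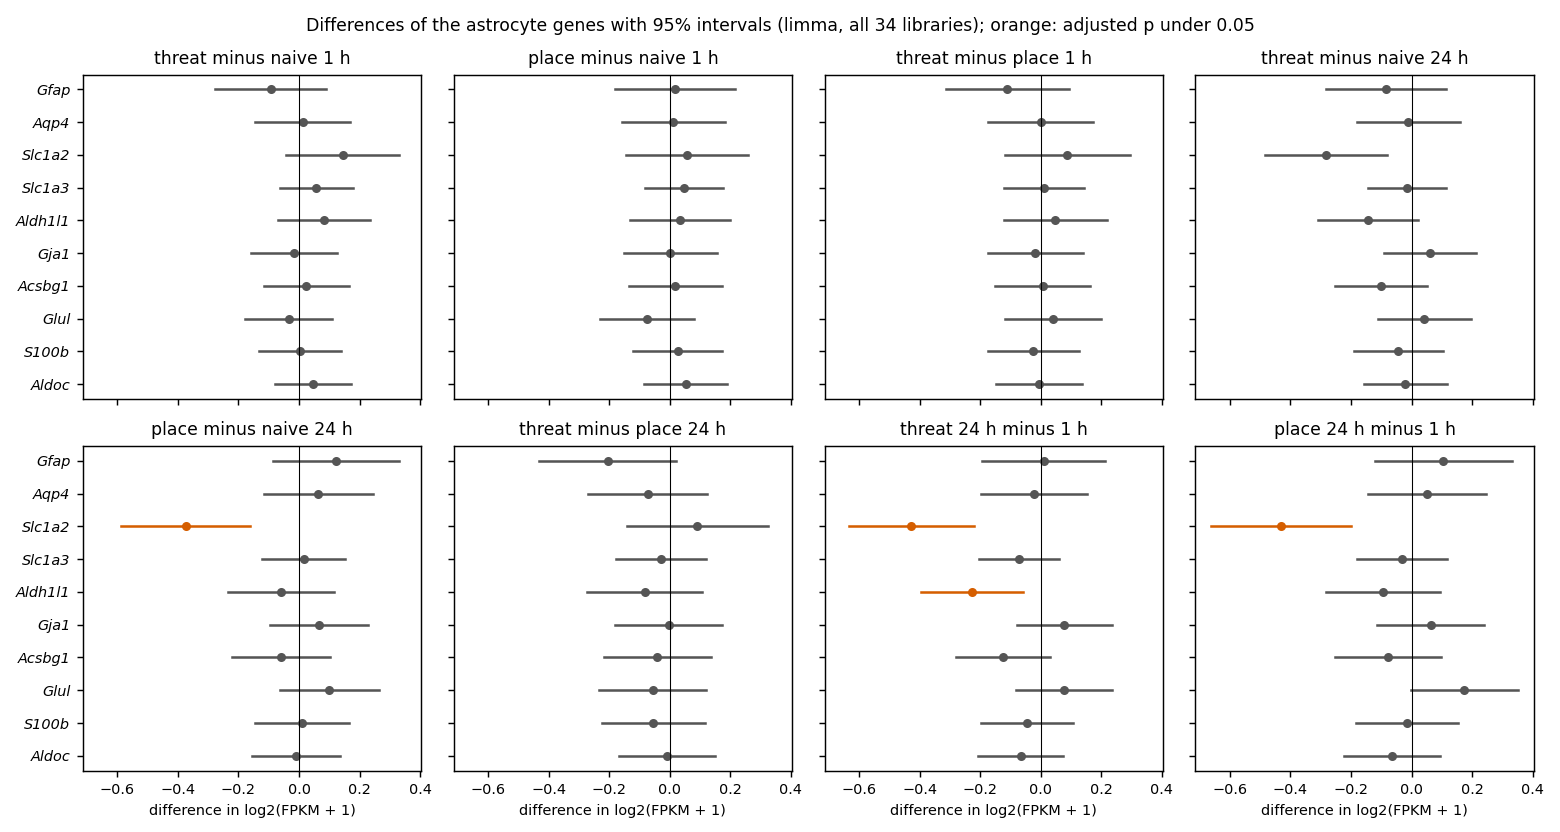
Differences in log2(FPKM + 1) (horizontal axes) of the 10 astrocyte genes in 8 comparisons, 1 per panel, with 95% intervals as lines from a limma fit of all 34 libraries. Orange marks the 4 differences with an adjusted p under 0.05: Slc1a2 in 3 panels (-0.37 to -0.43) and Aldh1l1 in 1 panel (-0.23).

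The members varied together to different degrees across libraries. Over the 34 libraries Pearson's r of log2(FPKM + 1) was highest between Acsbg1 and Aldoc (0.90) and between S100b and Aldoc (0.89). Slc1a2 stood apart from Gfap (r = -0.01) and from Glul (-0.09), while its r with Slc1a3 was 0.58. These correlations pool the 5 groups, and libraries share dissection and depth, so they are given as a description.

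Among the genes most like the mean of the members were Serpine2, a secreted protease inhibitor (r = 0.91, Spearman's rho 0.89, 34 libraries), IL33 (0.89 and 0.88), Ndrg2 (0.88 and 0.87) and Cldn10 (0.88 and 0.87). None of these 4 was called between 1 h and 24 h in threat or place libraries.

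The genes most like Slc1a2 were Prex2, a Rac exchange factor (r = 0.95), Igdcc4 (0.93) and Ptprb, a receptor phosphatase of endothelium (0.90). All 3 fell from 1 h to 24 h in threat libraries. Prex2 went from 33.0 ± 2.63 FPKM (SD, n = 8) to 25.8 ± 2.73 (SD, n = 6), -0.35 log2 (limma adjusted p = 0.00293). Igdcc4 went from 20.4 ± 1.41 to 16.1 ± 0.99 FPKM, -0.33 log2, and Ptprb from 4.15 ± 0.45 to 2.85 ± 0.35 FPKM, -0.42 log2. In place libraries Igdcc4 (-0.24) and Ptprb (-0.39) were called and Prex2 (-0.25) was not (limma adjusted p = 0.0409, 0.00673 and 0.0852). Like Slc1a2, each was higher in naive libraries 1 to 4 than in 5 to 9 without overlap, at 31.6 to 39.8 against 27.1 to 30.0 FPKM for Prex2. These genes were picked for a likeness that includes the time difference, so their folds are a description.

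Other astrocyte genes were read from 8 lists by role, with 123 tested genes apart from the members. In bulk tissue, which cells the RNA of these listed genes came from cannot be told. From 1 h to 24 h in threat libraries 4 were higher and 17 lower, or 17.1%, where 29.3% of all genes tested were called. In place libraries 2 were higher and 2 lower (3.25%, against 13.3%).

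Among glutamate, GABA and glutamine handling genes, 3 of 14 were called in threat. Slc38a3, a glutamine exporter of astrocytes, fell from 21.9 to 16.3 FPKM (-0.40 ± 0.08 log2, SE; limma adjusted p = 0.000609). Slc7a10, an exchanger of serine and other small amino acids, fell by 0.29 log2. Abat, which breaks down GABA, rose by 0.17 log2. None of the 14 was called in place.

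In the ion, water and gap junction list 1 of 12 tested genes was called, Kcnj10, the inward rectifier potassium channel of astrocytes, which fell from 31.8 to 26.6 FPKM in threat (-0.25 log2). Of 13 glycogen, glycolysis and lactate genes 3 fell: the glucose transporter Slc2a1 (47.9 to 36.2 FPKM, -0.39), the glycogen synthase Gys1 (-0.15) and Bsg, a partner of lactate transporters (-0.12). Slc2a1 had been higher in threat 1 h than in naive libraries (0.29 log2; limma adjusted p = 0.0286). Of 13 lipid and sterol genes Acsl3, an acyl-CoA synthetase, was called, higher by 0.10.

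Of 24 reactive astrocyte genes 11 passed the filter, and in each group 13 of the 24 had a mean under 1 FPKM. In threat, Hspb1, a small heat shock protein, fell from 6.18 to 3.19 FPKM (-0.76 log2) and Stat3, a cytokine-activated transcription factor, by 0.17.

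Of 18 tested transcription and Notch or FGF signalling genes, 5 fell and 2 rose in threat, and the 3 with the lowest p were Hes1, a Notch target (-0.45), Itga6, an integrin (-0.24), and Id1, an inhibitor of bHLH factors (-0.32). In place 2 fell, Id1 (-0.37) and Lhx2 (-0.27), and 2 rose, Id2 (0.29) and Sox2 (0.20). Sox2 lies outside the rule for named genes and is named because the count is small. Of 14 secreted and perisynaptic genes Timp3, a metalloproteinase inhibitor, fell in threat (-0.44). Of 28 other markers Phkg1 (-0.39), Prodh (-0.35) and Gpld1 (-0.28) fell.

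At 1 h in threat against naive libraries 3 of the 123 were called (2.44%, where 0.928% of all genes were), all higher: Slc2a1, Hspb1 (0.53) and Timp3 (0.36). At 24 h 1 of the 123 was called in threat against naive libraries, Gpld1 (-0.34), where 10.1% of all genes were called. In place it was also 1, Acsl3 (0.13), where 5.05% of all genes were called. In threat against place at either time, and in the interaction, 0 of the 123 were called.

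Markers of other cells also differed between 1 h and 24 h. Over all genes, 29.3% were called in threat (16.8% lower) and 13.3% in place. Of 11 endothelial and mural markers 7 fell from 1 h to 24 h in threat, with the lowest p for Rgs5, Flt1 and Kcnj8, and their sum went from 110 to 149 FPKM at 1 h to 95.9 to 117 at 24 h, with none at 0. In place 0 of 11 were called. Against naive libraries at 24 h, 5 of the 11 were lower in threat, where 10.1% of all genes were called and 759 of 13153 were called lower. Slc1a2 was 0.28 log2 lower in that comparison without passing the test. Microglial markers had 1 of 12 higher in threat, C1qa, and 3 of 12 in place, and their sum in place went from 135 to 192 FPKM at 1 h to 186 to 225 at 24 h. Of 8 CA1 pyramidal markers 2 rose in threat, Nov (1.09 log2) and Man1a1 (0.60), with sums of 190 to 374 FPKM at 1 h and 323 to 464 at 24 h. Of 13 oligodendrocyte markers 1 fell in threat, and 3 of 3 blood markers rose in place. The part of these markers in the fall of Slc1a2 was not tested. Slc1a2 was still called in both time comparisons without the choroid-rich libraries, and without place 1 h replicate 3.

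Methylated DNA at the gene starts separated Gfap from most other members. MBD values are RPKM (reads per kilobase, scaled to the reads of a library) in bins of 500 nt, on rn5 positions, and a value near the input means no capture above background. Taking the smallest value above 0 in a library as 1 read, 3 reads correspond to 0.134 to 0.152 RPKM at 1 h and 0.0819 to 0.114 at 24 h. Whether the annotated rn5 starts equal the RefSeq starts printed above was not checked, and Aldoc is on opposite strands in the 2 sources. The annotated rn5 Slc1a2 gene is 26589 bases long, less than the distance between its 2 RefSeq starts in GRCr8. It therefore does not span both, and which of them its start matches, if either, is not known.

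At 1 h the Gfap start bin (chromosome 10, 90771501 to 90772000) ran from 1.12 to 2.77 RPKM in the 10 captured libraries and from 0.129 to 0.360 in the 3 inputs. Its captured mean was 6.02 times the input mean. By group it was 1.35 ± 0.22 in naive (SD, n = 3), 1.59 ± 0.25 in place (SD, n = 4) and 1.74 ± 0.90 in threat (SD, n = 3), with overlapping ranges. At 24 h, when capture was weaker over all bins (85335 tested against 350378 at 1 h), the same bin ran from 0.377 to 0.792 RPKM against 0.317 to 0.376 in the inputs.

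The annotated Slc1a2 start (chromosome 3, 99282501 to 99283000) held 0.740 to 1.72 RPKM in captured libraries at 1 h and 0.601 to 0.644 in the inputs. At 24 h it held 0.142 to 0.551 against 0.242 to 0.475, with no excess. The starts of Aqp4 and Acsbg1 lay near the input at both times, at captured means of 0.538 and 0.545 RPKM against 0.483 and 0.482 at 1 h.

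The other starts were nearly empty in captured libraries. At 1 h Slc1a3 ran from 0 to 0.0508 RPKM against 0.300 to 0.660 in the inputs, and Glul from 0 to 0.0462 against 0.280 to 0.773. Aldh1l1 had a captured mean of 0.0334 against 0.551, and Aldoc of 0.0743 against 0.900. Gja1 was at 0 in all 10 captured libraries. An expected count of up to 3 reads in any 1 library can still give 0, and the input mean of Gja1 was only 0.137. S100b was low in both, at 0.0185 and 0.0280 RPKM, so nothing can be read at its start at 1 h. The starts of Slc1a3, Glul and Aldoc stayed under the inputs at 24 h, with captured means of 0.0293, 0.0169 and 0.0266 RPKM, and S100b then had 0.0799 RPKM against 0.274. Aldh1l1 ran from 0.0280 to 0.265 RPKM at 24 h and overlapped its inputs, at 0.161 to 0.361.

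**Figure D4:**
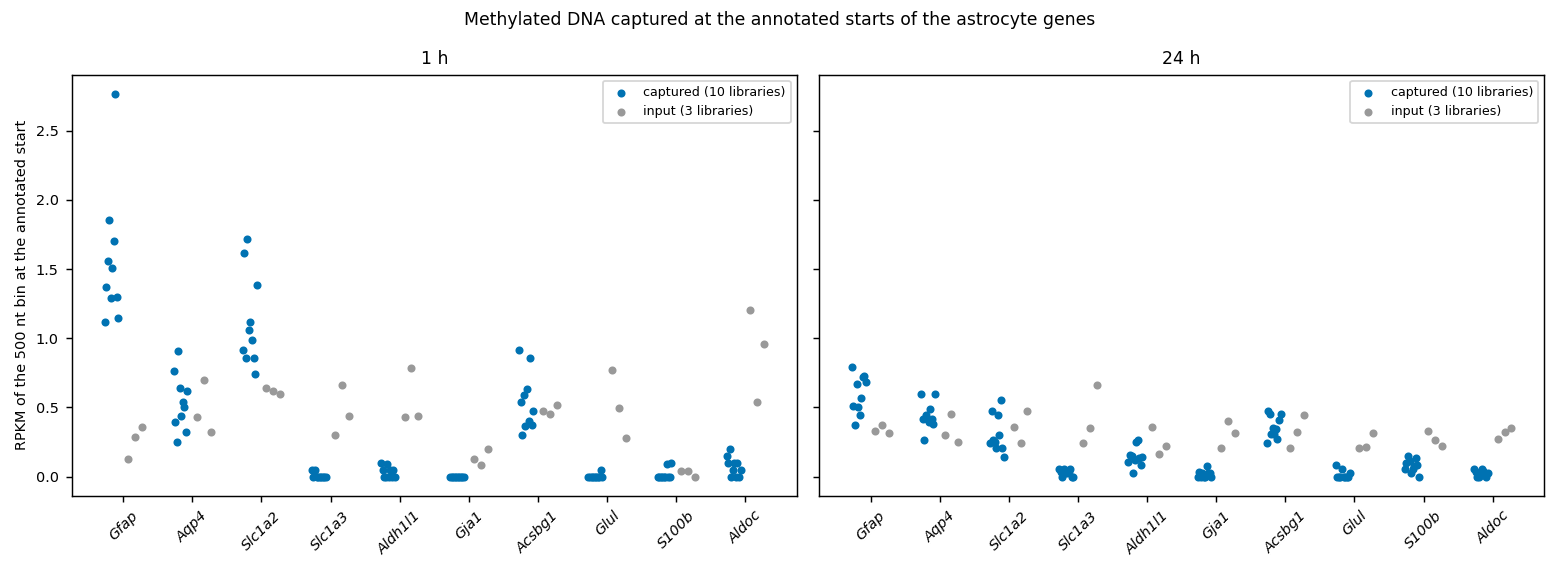
RPKM (vertical axis) of the 500 nt bin at the annotated start of each astrocyte gene at 1 h (left) and 24 h (right), in 10 captured libraries (blue) and 3 inputs (grey). At 1 h the captured libraries exceed the inputs at Gfap (1.12 to 2.77 against 0.129 to 0.360) and lie below them at Slc1a3, Aldh1l1, Gja1, Glul and Aldoc.

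Away from the starts, captured DNA was found in or near most members at 1 h. Of 563 bins from 2000 bases before the start to the end of the 10 genes, 66 held a captured mean of at least 1 RPKM and 2 times the input at 1 h, and 4 at 24 h. Slc1a3 had 16 such bins at 1 h, Acsbg1 13, Aldh1l1 10, Gfap 7 and S100b 6, while Aldoc had 0 of 12. The highest ratio was in Gja1 (chromosome 20, 39622001 to 39622500), at 4.51 RPKM against an input of 0.513, 8.78 times, and the same bin led Gja1 at 24 h with 1.34 against 0.338. In Slc1a2 it was near the gene's end, at 1.85 against 0.288 RPKM.

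Training groups were not told apart at these bins at 1 h. Threat against naive tissue called 0 of 66 member bins, with 0.016% of all tested bins called. Place against naive tissue also called 0 of 66, with 0.00285% of all bins, and threat against place called 0 of 66, with 0.0174%. At an unadjusted p under 0.05 limma gave 53954, 11719 and 34980 bins of all tested. At 24 h threat and place against naive each called 0 of 4, with 0.0105% and 0.0082% of all bins called.

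At 24 h 1 of 4 member bins was called in threat against place, where 7.7% of all bins were called. It lies at the end of Slc1a3 (chromosome 2, 79348001 to 79348500, reaching into the last bases of the gene). Threat libraries held 1.60, 1.28 and 1.11 RPKM, place libraries 1.01, 1.03, 0.812 and 0.53, and the input mean was 0.275. The difference was 0.54 ± 0.17 in log2(RPKM + 0.25) (SE; limma adjusted p = 0.0474). The median over all bins in that comparison was 0.28, and with quantile normalization 0 member bins were called and 5 of all bins. The call was also lost without any 1 of naive replicates 1 and 2, place replicates 2, 3 and 4 or threat replicates 1 and 2.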

How the data were processed

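RNA values are FPKM per gene as deposited, from directional polyA+ libraries per the labels' protocols. MBD values are RPKM per 500 nt bin as deposited by the authors. Per the submitters' processing notes, rn5, mm10, edgeR, DESeq2, Bowtie and TopHat 1.4.0 were used, in roles not given; positions fit rat rn5. The RNA files give no read totals, so precision is read from the replicates.

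All 34 RNA libraries entered 1 limma 3.58.1 fit (R 4.3.3, trend) of log2(FPKM + 1) (5 group means, residual df 29). It covered the 13153 genes that reached 1 FPKM in 5 or more libraries. At each time the 10 captured MBD libraries had a limma fit of log2(RPKM + 0.25), for bins with a captured mean of at least 1 RPKM and 2 times the input. p-values were Benjamini-Hochberg adjusted over all genes or bins tested, with a threshold of 0.05. Differences on these scales understate changes of low genes. The fit was tested on simulated data.

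The members and the 20 gene lists (252 of 262 genes found) were chosen with earlier results of these data known. Named genes were all members, up to 3 called genes with the lowest p of each list and comparison, the most abundant marker of other cells, the 5 genes most like the members' mean and 3 most like each member, and per member the start bin, the bin with the highest captured over input ratio and any called bin. One gene that the rule names is not reported here. Alternatives were other pseudocounts, filters, scalings, weights and samples, and a replicate block.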

Additional observations from a re-analysis of the deposited data

Results flagged for a closer look

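Each of the 10 members was checked in each of the 5 RNA groups for a library far from the others, 50 groups in all, and chance alone flags about 1 in 20 groups. In 2 of them a library stood out by its gap to the next one. Acsbg1 was at 59.9 FPKM in threat 24 h replicate 2, against 50.8 to 54.0 in the other 5 libraries. Aldoc was at 424 FPKM in place 24 h replicate 4, against 335 to 357 in the other 4.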

How the results depend on the processing

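The fall of Slc1a2 from 1 h to 24 h was called in threat and in place libraries under every alternative run, and no called value changed direction. Other counts of called members moved. Threat against naive at 24 h went from 0 to 1 (Slc1a2) with quantile normalization and with naive libraries 1 to 4 alone, and threat against naive at 1 h went from 0 to 1 (Slc1a2) with naive libraries 5 to 9 alone. Place against naive at 24 h went from 1 to 0 without the filter, when the fit held only the 2 groups, and with naive 5 to 9 alone. Threat 24 h against 1 h went from 2 to 1 (Aldh1l1 lost) with quantile normalization, without the filter and without the choroid-rich libraries. Place 24 h against 1 h went from 1 to 3 with array weights, which added Aldh1l1 (-0.20) and Aldoc (-0.15). In MBD, threat against place at 24 h went from 1 to 2 with a pseudocount of 1, and to 0 without the input criterion, with a minimum of 2 RPKM and with quantile normalization. The causes were not tested.

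With 1 library left out at a time, the counts ran from 0 to 1 for threat against naive at 24 h (called without naive replicate 6, 7 or 8) and from 0 to 1 for place against naive at 24 h (lost without naive 1, 2, 3 or 4, or place 24 h 1, 2, 3 or 5). They ran from 1 to 2 for threat 24 h against 1 h (Aldh1l1 lost without threat 1 h 1, 4, 5 or 8, or threat 24 h 4, 5 or 6) and stayed at 1 for place. In MBD they ran from 0 to 1 for threat against naive at 1 h (1 without threat replicate 3) and from 0 to 2 for threat against place at 24 h. The other counts stayed at 0.

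Same-numbered libraries did not deviate together (mean r of -0.01, and 17 of 58 pairs over 0.1), so the numbers were not taken to pair them. With the replicate block, threat against naive at 24 h called 1 member, Slc1a2, and no other count of called members moved.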
